A study of Aspergillus niger with 9 samples.

Results

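The genes described here are the heterokaryon incompatibility and NACHT domain genes of the filamentous fungus Aspergillus niger. They were taken from the deposited annotation: a gene belongs if it carries the HET domain (PF06985), carries the NACHT domain (PF05729), or has a closest SwissProt protein described as a vegetative incompatibility protein. Of 11187 genes in the deposited tables, 53 met this rule. The HET domain was held by 20 of them and the NACHT domain by 23, and 0 genes held both. The SwissProt wording applied to 24 genes, each closest to HET-E-1 of Podospora anserina, and 10 genes were found by that wording alone. The rule used the annotation and no expression value.

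When hyphae of different individuals fuse, filamentous fungi compare their partner's alleles at incompatibility loci, and a mismatch kills the fused cell. Many of the proteins involved resemble the NOD-like immune receptors of animals and plants: a central ATPase of the NACHT or NB-ARC type, an amino-terminal effector domain, and a carboxy-terminal array of WD40, ankyrin or tetratricopeptide repeats that is thought to sense a ligand. The HET domain is a death-inducing effector, and HET-E-1 of Podospora anserina joins a HET domain, a NACHT ATPase and WD40 repeats in 1 protein. What most of these genes do in Aspergillus niger is not given in the annotation, so the roles named below are those of the domain or of the closest protein in another species.

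RNA was measured in vegetative mycelium of 3 strains with 3 libraries each, from biological triplicates in shaken liquid medium. ΔaslA is a knockout strain for aslA in the MA234.1 background, ΔaslB is a knockout strain for aslB in the same background, and MA234.1 is the strain without these knockouts, whose genotype field is not filled in. By its title the study deals with transcription factors that FlbA, which regulates G protein signalling in aspergilli, controls. Cultures of 16 h on 25 mM glucose, enriched with yeast extract and casamino acids, and of 4 h on 25 mM xylose are named in the protocol. Which of these cultures a library came from, and how many transformants stand behind each deletion, are not given in the labels.

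Library totals ran from 11321882 to 19110786 counts. Across genes on a log scale, the correlation of ΔaslB replicate 2 with MA234.1 libraries was 0.970 to 0.978, whereas ΔaslB replicate 1 reached 0.922 to 0.941, and replicate 3 reached 0.967 to 0.984, with libraries of ΔaslA. ΔaslA replicate 2 also stood apart: the chi-square of its counts per degree of freedom was 87.9 and 86.7 against ΔaslA replicates 1 and 3, and 2.45 between those. Values of ΔaslB are therefore given library by library, and each ΔaslB result with and without the library it rests on. No gene was matched to the names aslA or aslB, so the deletions were not checked. Markers of conidiation, which would mark cells other than vegetative hyphae, matched 14 genes under 5 names, most of them under wA. Their summed level was 86.0 to 94.6 CPM in ΔaslA, 68.0 to 124 CPM in ΔaslB and 129 to 143 CPM in MA234.1. The wA match ATCC64974_8540 was at 19.96, 13.06 and 20.52 CPM in ΔaslA, against 37.05, 47.07 and 48.05 CPM in MA234.1. The rodA match ATCC64974_45620 was at 4.88, 3.266 and 5.285 CPM in ΔaslA, against 14.58, 10.82 and 12.05 CPM in MA234.1. The other rodA match, ATCC64974_85500, was at 4.585, 0.9482 and 4.896 CPM in ΔaslA, against 2.109, 3.954 and 3.685 CPM in MA234.1. The lower sum in ΔaslA was thus not shared by every match. Of the brlA matches, which resemble the activator of conidiation, ATCC64974_72370 was at 17.9, 11.7 and 18.7 CPM in ΔaslA, against 36.9, 41.0 and 39.2 CPM in MA234.1. By contrast, abaA was at 18.4, 21.7 and 16.9 CPM in ΔaslA, against 0.825, 2.01 and 1.46 CPM in MA234.1, and wetA was at 21.4, 30.7 and 22.1 CPM in ΔaslA, against 24.0, 20.9 and 23.3 CPM in MA234.1. The part of these markers in the results below was not tested, and in bulk RNA fewer cells of a type and less RNA per cell cannot be told apart.

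Most incompatibility and NACHT genes were expressed at a low level in all 3 strains. Levels are compared between genes by the authors' deposited FPKM (fragments scaled for transcript length and library size), which is 1 value per strain with no spread. The median of the 53 genes was 0.799 FPKM in ΔaslA, 1.70 FPKM in ΔaslB and 3.35 FPKM in MA234.1, while the median of all genes was 15.1, 18.5 and 16.2 FPKM in the same strains. At least 10 FPKM was reached by 8 of the 53 genes in ΔaslA, 12 in ΔaslB and 12 in MA234.1, that is 15.1%, 22.6% and 22.6%, against 55.9%, 60.1% and 58.6% of all genes. Under 1 FPKM stood 30 genes in ΔaslA, 19 in ΔaslB and 18 in MA234.1. The highest level in MA234.1, 52.3 FPKM, belonged to the ankyrin repeat gene ATCC64974_39700, followed by the NACHT and ankyrin gene ATCC64974_17940 at 47.5 FPKM and the HET gene ATCC64974_84720 at 35.2 FPKM. In ΔaslA the order differed: the NACHT gene ATCC64974_75670 led at 37.0 FPKM, ahead of the NACHT and ankyrin gene ATCC64974_111340 at 35.6 FPKM and ATCC64974_39700 at 24.7 FPKM. Summed over the 53 genes, the counts scaled to library size (CPM, after edgeR's TMM scaling) came to 604, 480.5 and 597 in ΔaslA and to 945, 989.5 and 1018 in MA234.1, so that the libraries of these strains did not overlap. The same sum was 706, 1080 and 569.5 CPM in ΔaslB replicates 1 to 3, which spans both.

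**Figure D1:**
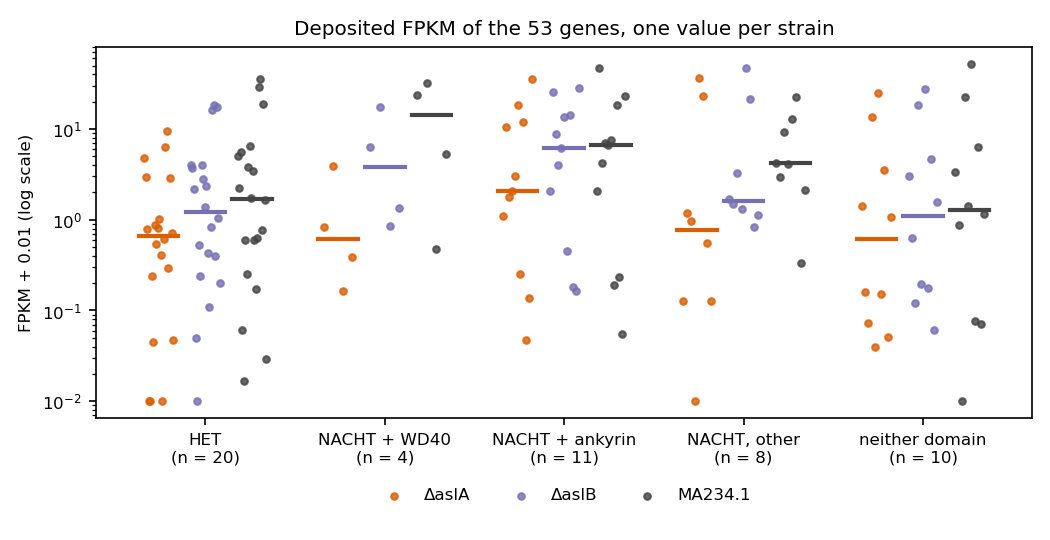
Deposited FPKM + 0.01 (log scale) of the 53 genes by domain group, 1 point per gene and strain, with ΔaslA, ΔaslB and MA234.1 side by side; bars are medians and points at the bottom are genes listed at 0. The median of the 4 NACHT and WD40 genes was 0.600 FPKM in ΔaslA, 3.80 FPKM in ΔaslB and 14.4 FPKM in MA234.1.

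In ΔaslA against MA234.1, the question is which of these transcripts differ when aslA is deleted. Of the 43 genes that passed edgeR's filter on low counts, 20 were called at an edgeR adjusted p under 0.05, or 46.5%, beside 48.7% of all 9568 genes tested. The share called was thus near the background, and the directions were uneven: 18 fell and 2 rose in ΔaslA, that is 41.9% and 4.65%, beside 25.0% and 23.6% of all genes. The median log2 fold change was -1.27 over the 43 genes and 0.00 over all genes tested, and 37 of the 43 values were negative. Without any overlap between the 3 ΔaslA and the 3 MA234.1 libraries, 26 genes were lower in ΔaslA and 3 higher, or 60.5% and 6.98%, beside 37.9% and 36.8% of all genes. The filter bears on these counts: 6 of the 43 genes passed although no ΔaslA library reached its cutoff, and 4 of these were among the 18 that fell. When all 53 genes were kept, 19 were called lower and 2 higher, beside 20.9% and 21.2% of 10994 genes.

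The direction was also read within levels. Among tested genes with a mean of at least 10 CPM, 9 of 17 incompatibility and NACHT genes fell and 2 rose, or 52.9% and 11.8%, beside 23.6% and 29.4% of all such genes. Among those under 10 CPM, 9 of 26 fell and 0 rose, or 34.6% and 0%, beside 28.6% and 8.84%. At the lower level the share of falls was thus closer to the background. The spread behind these calls includes the ΔaslB libraries. With the 6 libraries of ΔaslA and MA234.1 alone, 26 of 41 tested genes were called lower and 3 higher, beside 34.9% and 34.4% of all genes. With ΔaslB replicate 2 left out of the fit, 25 of 44 were called lower and 3 higher, beside 30.9% and 30.2% of all genes. With ΔaslA replicate 2 left out, 16 of 44 were called lower and 2 higher, beside 18.7% and 17.8% of all genes.

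**Figure D2:**
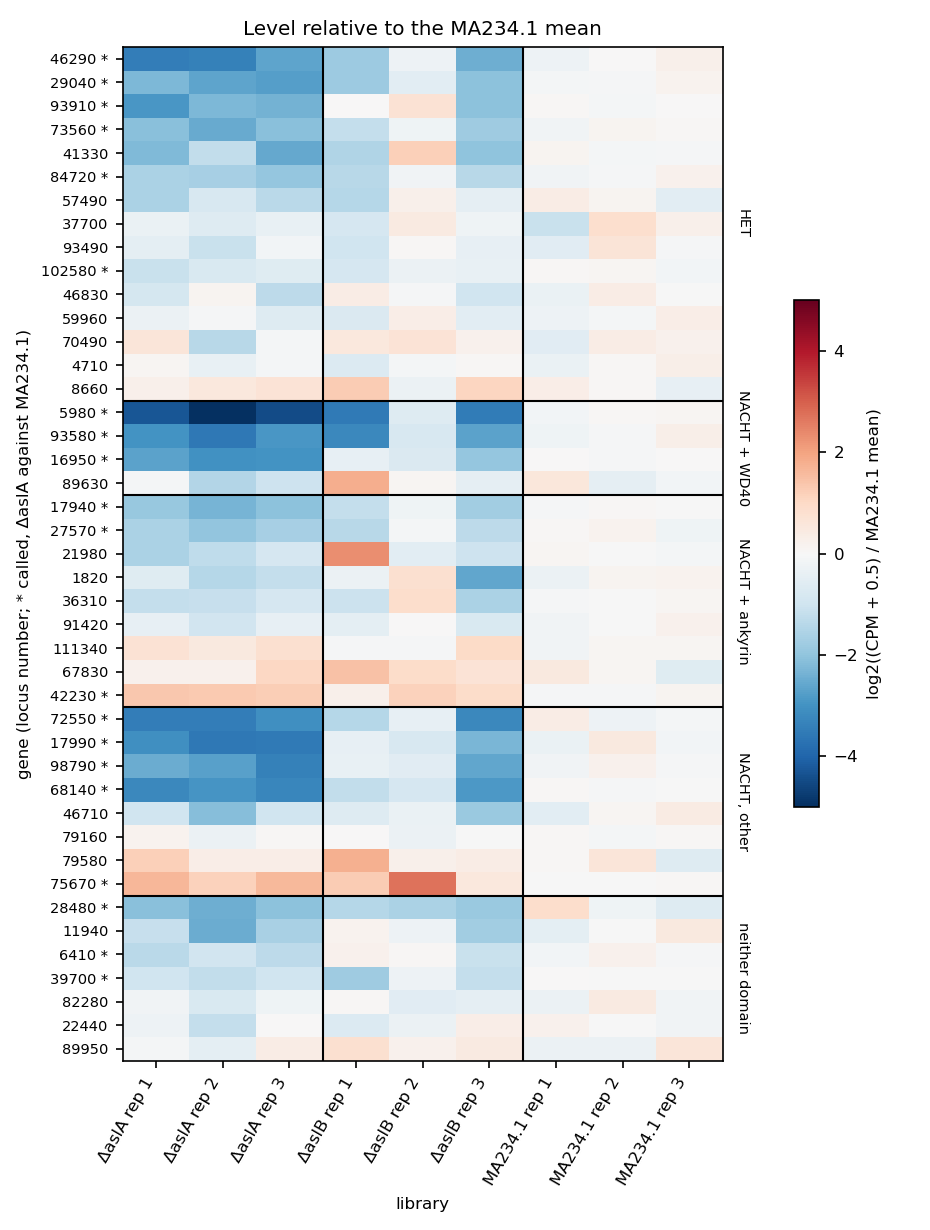
Level of each of the 43 tested genes in each of the 9 libraries as log2 of (CPM + 0.5) over the MA234.1 mean, with genes grouped by domain and called genes starred; blue is below and red above the MA234.1 mean. The ΔaslA columns are blue for most genes, and ΔaslB replicate 2 looks paler than ΔaslB replicates 1 and 3 for most starred rows.

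The NACHT genes with WD40 repeats, the architecture nearest to HET-E-1 without its HET domain, had the lowest median among the domain groups, -3.21, and 3 of 4 fell, beside the 25.0% of all genes that fell. WD40 repeats form a propeller that binds other proteins, though the annotation lists only 1 such repeat for ATCC64974_16950. The gene ATCC64974_16950 (contig 3, 1740475 to 1745219, minus strand) was at 15.9, 12.3 and 12.6 CPM in ΔaslA, 78.6, 63.4 and 26.9 CPM in ΔaslB, and 107, 99.9 and 106 CPM in MA234.1. Its ΔaslA libraries all lay far below those of MA234.1, and the ΔaslB libraries lay between the 2 strains. It fell 7.65-fold, with a log2 fold change of -2.94 (standard error, SE, 0.37) at an edgeR adjusted p = 0.00723, the lowest of the 43 tested genes. ATCC64974_5980 (contig 1, 1792210 to 1796113, minus strand), whose annotation lists 10 WD40 repeats, was at 2.81, 1.42 and 2.41 CPM in ΔaslA, 5.04, 40.6 and 5.24 CPM in ΔaslB, and 57.9, 65.8 and 68.8 CPM in MA234.1. Only ΔaslB replicate 2 came near MA234.1 (ΔaslA over MA234.1, log2 fold change -4.86, SE 0.87, edgeR adjusted p = 0.00808). ATCC64974_93580 (contig 16, 2103372 to 2108036, minus strand), with 3 WD40 repeats, showed the same split: 1.85, 1.05 and 2.02 CPM in ΔaslA, 1.51, 10.2 and 2.41 CPM in ΔaslB, and 15.8, 17.4 and 22.2 CPM in MA234.1. It fell by 3.49 on the log2 scale (SE 0.70, edgeR adjusted p = 0.00819). The remaining gene, ATCC64974_89630, was under 6 CPM in every library and was not called (log2 fold change -1.28, SE 0.93, edgeR adjusted p = 0.275).

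NACHT genes with ankyrin repeats, which are short helical repeats that also bind other proteins, gave 2 falls and 1 rise among the 9 that passed the filter, with a median of -1.11. These small counts stand beside the 25.0% of all genes that fell and the 23.6% that rose. ATCC64974_17940 (contig 3, 2037491 to 2042300, plus strand), closest to ankyrin repeat domain-containing protein 50 of human, was at 39.0, 28.8 and 35.4 CPM in ΔaslA, 64.4, 128 and 44.2 CPM in ΔaslB, and 141, 153 and 147 CPM in MA234.1. The 3 strains did not overlap, and ΔaslA was 4.27-fold lower than MA234.1 (log2 fold change -2.09 with an SE of 0.36, edgeR adjusted p = 0.00808). The lower expressed ATCC64974_27570 fell by 1.86 on the log2 scale (SE 0.41, edgeR adjusted p = 0.00896), with 4.51, 3.37 and 4.27 CPM in ΔaslA, 5.26, 13.6 and 5.57 CPM in ΔaslB, and 15.4, 16.4 and 12.4 CPM in MA234.1.

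The gene of this group that rose was ATCC64974_42230 (contig 6, 1024858 to 1029071, minus strand), which also carries a nucleoside phosphorylase domain, a fold found at the amino-terminal end of some fungal NOD-like proteins. It was at 61.3, 61.3 and 57.7 CPM in ΔaslA, 28.6, 53.7 and 46.2 CPM in ΔaslB, and 23.0, 22.9 and 26.6 CPM in MA234.1. The 3 strains did not overlap, with ΔaslA highest and 2.49-fold above MA234.1 (log2 fold change 1.31, SE 0.24, edgeR adjusted p = 0.00808). A gene of the same architecture, ATCC64974_111340 (contig 17, 4866657 to 4871032, plus strand), was at 113, 95.2 and 118 CPM in ΔaslA, 64.4, 64.0 and 130 CPM in ΔaslB, and 59.0, 72.1 and 71.6 CPM in MA234.1. Its ΔaslA and MA234.1 libraries did not overlap either, but it was not called in the fit of 9 libraries (log2 fold change 0.68, SE 0.29, edgeR adjusted p = 0.0785). ATCC64974_91420, at 38.9, 26.2 and 39.0 CPM in ΔaslA, 36.9, 53.0 and 30.7 CPM in ΔaslB, and 45.5, 51.2 and 59.3 CPM in MA234.1, was not called (log2 fold change -0.58, SE 0.26, edgeR adjusted p = 0.0936). Another tested gene of the same architecture, ATCC64974_1820, was not called (log2 fold change -1.17, SE 0.77, edgeR adjusted p = 0.227).

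Of the 8 NACHT genes with neither of these repeats, 4 fell and 1 rose, and the median was -2.40, beside 25.0% of all genes that fell and 23.6% that rose. Of the 4 that fell, 3 (ATCC64974_72550, ATCC64974_17990 and ATCC64974_98790) passed the filter with no ΔaslA library at its cutoff, so they could pass only through strains in which they were higher. ATCC64974_68140 (contig 10, 1721649 to 1726291, plus strand) joins a nucleoside phosphorylase domain to an ATPase annotated as both NACHT and NB-ARC, and is closest to the mouse NACHT, LRR and PYD domains-containing protein 10, an inflammasome-related protein. It was at 2.88, 3.53 and 2.80 CPM in ΔaslA, 12.7, 17.2 and 3.82 CPM in ΔaslB, and 32.3, 29.6 and 30.3 CPM in MA234.1. Every ΔaslB library lay between the other strains, and ΔaslA was 9.97-fold below MA234.1 (log2 fold change -3.32, SE 0.50, edgeR adjusted p = 0.00808). ATCC64974_72550 (contig 11, 305554 to 307390, minus strand) held 0, 0 and 0.155 CPM in ΔaslA, 1.51, 3.64 and 0.0831 CPM in ΔaslB, and 6.60, 4.03 and 4.53 CPM in MA234.1. It was barely detected in ΔaslA: 2 counts over the 3 ΔaslA libraries stood against 185 in MA234.1, a ratio of MA234.1 over ΔaslA of 112 with an exact 95% interval of 30.7 to 935 that covers counting error only (edgeR adjusted p = 0.00848).

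ATCC64974_17990 and ATCC64974_98790 fell as well, both at low levels. ATCC64974_17990 was at 0.518, 0.211 and 0.233 CPM in ΔaslA, 5.84, 4.31 and 1.25 CPM in ΔaslB, and 6.24, 11.2 and 7.14 CPM in MA234.1 (ΔaslA over MA234.1, log2 fold change -4.66, SE 0.68, edgeR adjusted p = 0.00808). ATCC64974_98790, which carries the NACHT_N domain that precedes the ATPase in many fungal proteins, was at 0.592, 0.421 and 0.0777 CPM in ΔaslA, 4.18, 3.58 and 0.499 CPM in ΔaslB, and 4.95, 6.64 and 5.30 CPM in MA234.1 (log2 fold change -3.90, SE 0.83, edgeR adjusted p = 0.00871). In both, ΔaslB replicates 1 and 2 were several times above ΔaslB replicate 3. The gene that rose was ATCC64974_75670 (contig 13, 593721 to 597402, plus strand), closest to HET-E-1, at 109, 76.7 and 106 CPM in ΔaslA, 82.4, 225 and 49.5 CPM in ΔaslB, and 33.4, 33.9 and 35.4 CPM in MA234.1. Every library of both deletion strains lay above MA234.1, ΔaslB replicate 2 furthest, and ΔaslA was 2.85-fold higher (log2 fold change 1.51, SE 0.48, edgeR adjusted p = 0.0299). This call was lost in 5 of 17 alternatives, each with a library of ΔaslA or MA234.1 left out, where the edgeR adjusted p reached 0.0840. ATCC64974_79160, a NACHT gene with a tetratricopeptide repeat, was even across the libraries, at 71.1, 51.7 and 66.1 CPM in ΔaslA, 63.9, 50.7 and 62.6 CPM in ΔaslB, and 65.5, 58.3 and 65.9 CPM in MA234.1 (log2 fold change -0.01, SE 0.19, edgeR adjusted p = 0.983).

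**Figure D3:**
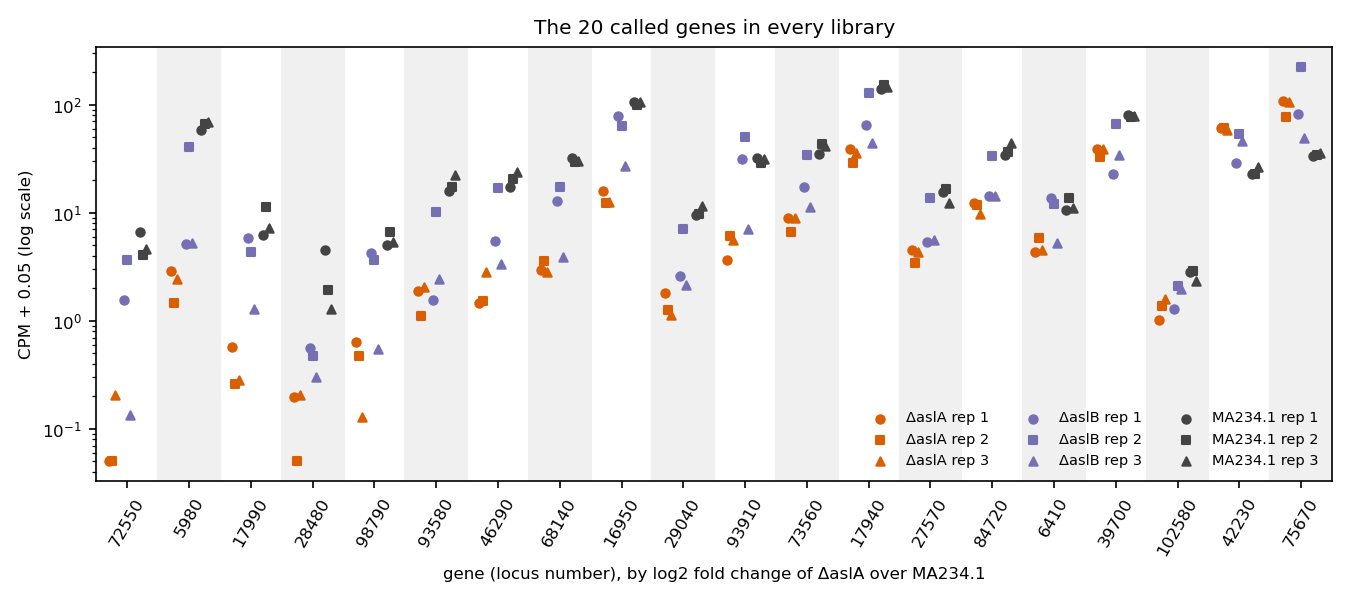
CPM + 0.05 (log scale) of the 20 called genes in each of the 9 libraries, ordered by log2 fold change of ΔaslA over MA234.1, with symbols for replicates 1 to 3. ΔaslA and MA234.1 do not overlap in any of the 20 genes, and in most of them ΔaslB replicate 2 (square) lies near MA234.1 and ΔaslB replicate 3 (triangle) near ΔaslA.

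The HET genes, which carry the death-inducing effector domain without a NACHT ATPase, gave 6 falls and 0 rises among the 15 that passed the filter, with a median of -1.17, beside 25.0% of all genes that fell and 23.6% that rose. ATCC64974_46290 (contig 7, 973400 to 977649, minus strand), closest to heterokaryon incompatibility protein 6 of Neurospora crassa, was at 1.41, 1.48 and 2.80 CPM in ΔaslA, 5.48, 16.8 and 3.32 CPM in ΔaslB, and 17.2, 20.3 and 24.0 CPM in MA234.1. Its 3 strains did not overlap (ΔaslA over MA234.1, log2 fold change -3.44, SE 0.62, edgeR adjusted p = 0.00808). ATCC64974_29040 (contig 4, 767287 to 769762, minus strand), with no SwissProt match, was at 1.78, 1.21 and 1.09 CPM in ΔaslA, 2.52, 6.97 and 2.08 CPM in ΔaslB, and 9.54, 9.70 and 11.5 CPM in MA234.1 (log2 fold change -2.91, SE 0.51, edgeR adjusted p = 0.00808). ATCC64974_73560 (contig 11, 629434 to 631409, minus strand), also with no SwissProt match, was at 8.87, 6.59 and 8.94 CPM in ΔaslA, 17.2, 34.4 and 11.2 CPM in ΔaslB, and 34.7, 43.4 and 41.6 CPM in MA234.1 (log2 fold change -2.30, SE 0.40, edgeR adjusted p = 0.00808). In these genes too the ΔaslB libraries stood between the strains, with replicate 2 the highest of them.

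The most highly expressed HET gene in MA234.1, ATCC64974_84720 (contig 14, 687542 to 688984, minus strand), was at 12.3, 11.8 and 9.72 CPM in ΔaslA, 14.2, 33.5 and 14.3 CPM in ΔaslB, and 34.0, 36.7 and 44.2 CPM in MA234.1, a 3.40-fold fall (log2 fold change -1.77, SE 0.36, edgeR adjusted p = 0.00820). ATCC64974_93910 (contig 16, 2204757 to 2206935, plus strand) had another pattern: 3.62, 6.01 and 5.60 CPM in ΔaslA, 31.1, 50.1 and 7.06 CPM in ΔaslB, and 31.7, 28.6 and 31.2 CPM in MA234.1. Here ΔaslB replicate 1 stood at the MA234.1 level and replicate 2 above it, while replicate 3 stood just above ΔaslA (ΔaslA over MA234.1, log2 fold change -2.58 with an SE of 0.60, edgeR adjusted p = 0.0101). The weakest called fall among HET genes was ATCC64974_102580, at 0.961, 1.32 and 1.55 CPM in ΔaslA, 1.23, 2.06 and 1.91 CPM in ΔaslB, and 2.75, 2.83 and 2.30 CPM in MA234.1 (log2 fold change -1.04, SE 0.38, edgeR adjusted p = 0.0490). This call was lost in 11 of 16 alternatives, over which the adjusted p ran from 0.0237 to 0.158. Of the 7 tested HET genes closest to HET-6 of Neurospora crassa 2 fell, and of the 7 with no SwissProt match 4 fell, ATCC64974_84720 and ATCC64974_93910 among them. The largest value without a call among HET genes was that of ATCC64974_41330 (log2 fold change -2.28 with an SE of 0.96, edgeR adjusted p = 0.0766), and the only positive value that of ATCC64974_8660 (log2 fold change 0.52, SE 0.47, edgeR adjusted p = 0.375).

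Among the 10 genes found by the SwissProt wording alone, 7 passed the filter, 3 fell and 0 rose, with a median of -1.09, beside 25.0% of all genes that fell and 23.6% that rose. These genes are closest to HET-E-1 but have neither the HET nor the NACHT domain in the annotation. ATCC64974_39700 (contig 6, 234369 to 236515, minus strand), an ankyrin repeat gene, was at 39.0, 32.9 and 38.7 CPM in ΔaslA, 22.6, 65.8 and 33.9 CPM in ΔaslB, and 80.4, 77.1 and 78.5 CPM in MA234.1. Every library of both deletion strains lay below MA234.1, and ΔaslB replicate 1 lay below ΔaslA (ΔaslA over MA234.1, log2 fold change -1.09, SE 0.35, edgeR adjusted p = 0.0287). ATCC64974_6410, with 9 WD40 repeats, was at 4.29, 5.79 and 4.43 CPM in ΔaslA, 13.6, 12 and 5.15 CPM in ΔaslB, and 10.5, 13.6 and 10.98 CPM in MA234.1 (log2 fold change -1.27, SE 0.38, edgeR adjusted p = 0.0229). With a library of ΔaslA or MA234.1 left out, the call of ATCC64974_39700 was lost in 6 of 17 alternatives, at an edgeR adjusted p up to 0.0866, and that of ATCC64974_6410 in 5 of 17, at up to 0.0785. ATCC64974_28480 (contig 4, 596974 to 599744, plus strand), which holds the NACHT_N domain and no annotated NACHT ATPase, was at 0.148, 0 and 0.155 CPM in ΔaslA, 0.504, 0.424 and 0.249 CPM in ΔaslB, and 4.49, 1.87 and 1.23 CPM in MA234.1. Every ΔaslB library lay under 1 CPM, and every MA234.1 library above it (log2 fold change -4.64, SE 0.89, edgeR adjusted p = 0.00808). It passed the filter with no ΔaslA library at its cutoff. ATCC64974_22440, a gene with 8 WD40 repeats at 22.0, 11.2 and 26.7 CPM in ΔaslA, 16.2, 21.5 and 33.0 CPM in ΔaslB, and 30.9, 25.8 and 23.1 CPM in MA234.1, was not called (log2 fold change -0.42 with an SE of 0.37, edgeR adjusted p = 0.367). The largest uncalled difference of the comparison was that of ATCC64974_11940, at 0.739, 0 and 0.389 CPM in ΔaslA, 2.59, 1.82 and 0.332 CPM in ΔaslB, and 1.47, 2.24 and 3.38 CPM in MA234.1 (log2 fold change -2.69, SE 1.04, edgeR adjusted p = 0.0592). It was called lower in 5 of 16 alternatives, DESeq2, limma-voom, the 6 libraries alone and the fits without ΔaslB replicate 2 or 3, and its adjusted p ran from 0.0168 to 0.159.

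**Figure D4:**
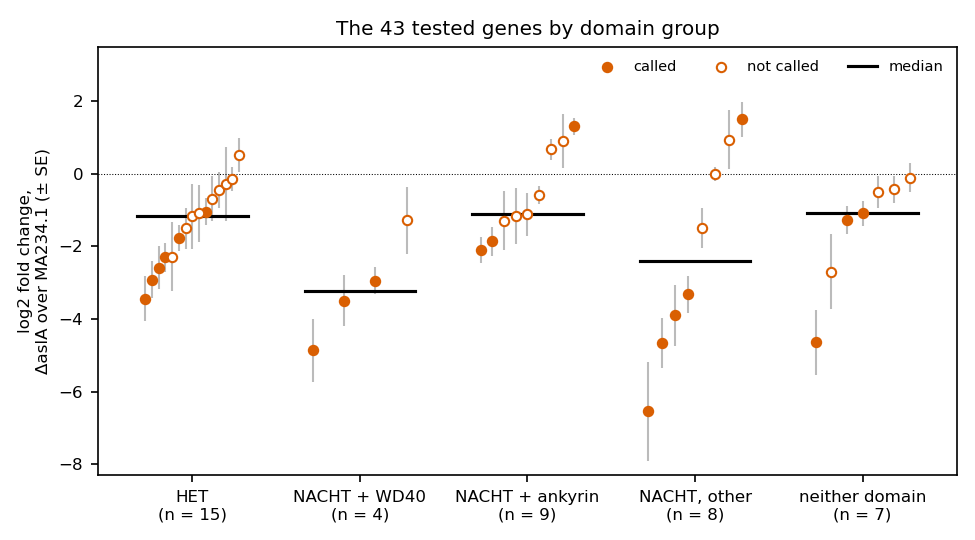
Log2 fold change of ΔaslA over MA234.1 with its SE for the 43 tested genes by domain group; filled points are called, open points are not, and the bar is the group's median. Medians run from -3.21 for NACHT with WD40 to -1.09 for genes with neither domain, and the 2 called rises are 1 NACHT gene with ankyrin repeats and 1 without repeats.

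Of the 53 genes, 10 were too low for a test, with 1 to 57 counts over the 9 libraries and at most 18 in any library. They were the HET genes ATCC64974_36820, ATCC64974_36930, ATCC64974_41220, ATCC64974_63730 and ATCC64974_109880, the NACHT genes ATCC64974_93750 and ATCC64974_102560, and ATCC64974_13720, ATCC64974_73280 and ATCC64974_89760, which have neither domain. Without the filter, edgeR called ATCC64974_93750 lower in ΔaslA (log2 fold change -2.98 with an SE of 0.97, edgeR adjusted p = 0.0337), with 2, 0 and 2 counts in ΔaslA, 8, 5 and 8 in ΔaslB, and 4, 18 and 10 in MA234.1. It also called ATCC64974_41220 lower (edgeR adjusted p = 0.0484), with 1, 0 and 1 counts in ΔaslA, 7, 3 and 5 in ΔaslB, and 5, 3 and 6 in MA234.1. These calls rest on few counts, and the other 8 genes were not called.

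In ΔaslB against MA234.1 edgeR called 0 of the 43 genes, as it called 0.0% of all genes. At an unadjusted p under 0.05 stood 13 of the 43 genes and 2943 of all 9568, limma-voom called 0 of the 43, and DESeq2 called 6. The median log2 fold change was -0.40 over the 43 genes and 0.01 over all genes. DESeq2 called ATCC64974_75670 and ATCC64974_42230 higher and ATCC64974_28480, ATCC64974_93580, ATCC64974_68140 and ATCC64974_29040 lower in ΔaslB, or 4.65% and 9.30%, beside 13.9% and 4.89% of all genes. It gave no adjusted p for ATCC64974_5980 (log2 fold change -1.92, SE 0.74), ATCC64974_93490, ATCC64974_37700 and ATCC64974_41330. Those genes count as not called here. The largest difference by edgeR was that of ATCC64974_28480 (log2 fold change -2.64, SE 0.75, edgeR adjusted p = 0.0728). This gene passed the filter with no ΔaslB library at its cutoff. No overlap between the ΔaslB and MA234.1 libraries was seen for 15 lower and 3 higher genes, or 34.9% and 6.98%, beside 22.8% and 14.0% of all genes.

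These ΔaslB counts rest on replicate 2. Without it, edgeR called 18 of 44 tested genes, 15 lower and 3 higher in ΔaslB, or 34.1% and 6.82%, beside 26.3% and 26.5% of all genes. The largest falls were then those of the NACHT and WD40 genes ATCC64974_5980 (log2 fold change -3.64 with an SE of 0.29, edgeR adjusted p = 1.05e-05) and ATCC64974_93580 (log2 fold change -3.23, SE 0.39, edgeR adjusted p = 0.000131). ATCC64974_75670, ATCC64974_42230 and the HET gene ATCC64974_8660 were the genes called higher, at 0.95, 0.63 and 1.26 on the log2 scale.

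Over the 20 genes called in ΔaslA, the ΔaslB libraries took different positions. ΔaslB replicate 2 was nearer to MA234.1 than to ΔaslA, by their means on the log2(CPM + 0.5) scale, in 17 of the 20, replicate 1 in 8 and replicate 3 in 2, beside 90.7%, 18.8% and 6.68% of all 4657 called genes. On the linear CPM scale the counts were 17, 6 and 1 for replicates 2, 1 and 3. On the log2 scale, the 8 genes in which ΔaslB replicate 1 lay closer to MA234.1 were ATCC64974_6410, ATCC64974_16950, ATCC64974_17990, ATCC64974_42230, ATCC64974_68140, ATCC64974_72550, ATCC64974_93910 and ATCC64974_98790. The 3 in which replicate 2 did not were ATCC64974_28480, ATCC64974_42230 and ATCC64974_75670. Both genes that rose in ΔaslA are thus among the exceptions, and in both of them every ΔaslB library was above every MA234.1 library.

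Some genes stood out in a single library, by a rule chosen after the values were seen: at least 2-fold beyond all the other libraries after adding 0.5 CPM. ΔaslB replicate 1 was above the rest for the NACHT and ankyrin gene ATCC64974_21980, at 61.5 CPM where the next highest library had 12.7 CPM, and for ATCC64974_89630, at 5.91 CPM where the next had 2.201 CPM. ΔaslB replicate 2 was above the rest for the HET gene ATCC64974_41330, at 12.6 CPM where the next had 5.78 CPM, and for ATCC64974_75670, at 225 CPM where the next had 109 CPM. These are 4.65% of the 43 genes in each library, beside 1.23% of all genes for ΔaslB replicate 1 and 0.272% for replicate 2. ΔaslB replicate 3 was below the rest for ATCC64974_1820, and MA234.1 replicate 1 above the rest for ATCC64974_28480.

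In ΔaslA against ΔaslB, which tests the deletions against each other, edgeR called 0 of the 43 genes and 0.0% of all genes. At an unadjusted p under 0.05 stood 18 of the 43 and 1651 of all genes, and limma-voom called 0 of the 43. DESeq2 called 10 genes lower in ΔaslA and 0 higher, or 23.3%, beside 5.31% and 0.47% of all genes. They were the NACHT genes ATCC64974_72550, ATCC64974_17990, ATCC64974_98790, ATCC64974_21980, ATCC64974_16950, ATCC64974_68140 and ATCC64974_17940 and the HET genes ATCC64974_93910, ATCC64974_46290 and ATCC64974_73560. Among them, ATCC64974_72550, ATCC64974_17990 and ATCC64974_98790 passed the filter with no ΔaslA library at its cutoff. These genes could thus pass only through strains in which they were higher. The call of ATCC64974_21980 rests on ΔaslB replicate 1. This gene was at 61.5, 8.06 and 5.40 CPM in ΔaslB, against 3.55, 4.58 and 6.295 CPM in ΔaslA, and the libraries overlapped. The smallest DESeq2 adjusted p, 1.52e-05, was that of ATCC64974_16950, which was 2.05 lower in ΔaslA on the log2 scale (SE 0.38). DESeq2 gave no adjusted p for ATCC64974_5980 (log2 fold change -2.97, SE 0.75) and ATCC64974_41330, which count as not called here. No overlap was seen for 12 genes lower in ΔaslA and for 1 higher, ATCC64974_42230, or 27.9% and 2.33%, beside 8.98% and 6.73% of all genes. The largest difference without an edgeR call was that of ATCC64974_72550, with 2 counts in ΔaslA and 82 in ΔaslB (edgeR adjusted p = 0.165).

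This comparison rests on ΔaslB replicate 3. Without it, edgeR called 14 of 44 tested genes, 13 lower and 1 higher in ΔaslA, or 29.5% and 2.27%, beside 11.0% and 2.14% of all genes. That fit keeps ΔaslB replicates 1 and 2, and replicate 2 resembles MA234.1. Without ΔaslB replicate 2 instead, edgeR called 0 of 44 tested genes in this comparison. At an unadjusted p under 0.05 then stood 18 of the 44 and 1512 of all genes. ATCC64974_72550, ATCC64974_17990 and ATCC64974_98790, which had no ΔaslA library at the filter's cutoff, were again among the genes called lower. So was ATCC64974_21980, whose high ΔaslB level is that of replicate 1 alone. The HET gene ATCC64974_93910 was then 2.99 lower in ΔaslA on the log2 scale (SE 0.30, edgeR adjusted p = 0.00121), and ATCC64974_16950 2.38 lower (SE 0.19, edgeR adjusted p = 0.000448). The gene called higher was ATCC64974_111340, with a log2 fold change of 0.76 (SE 0.18, edgeR adjusted p = 0.0340).

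In the authors' deposited table, 5 of the 53 genes carry the authors' call between ΔaslA and MA234.1, beside 13.4% of all genes. These are ATCC64974_16950, ATCC64974_17940, ATCC64974_5980, ATCC64974_73560 and ATCC64974_93910. The authors' deposited table calls 0 of them between ΔaslB and MA234.1, beside 3.79% of all genes, and 1, ATCC64974_93910, between ΔaslA and ΔaslB, beside 3.39%. The log2 ratios of the authors' deposited table between a deletion strain and MA234.1 run with MA234.1 on top and add 1 to the FPKM; for ATCC64974_5980 the ratio of MA234.1 over ΔaslA was 3.76, at a q-value of 0.000295. In the authors' deposited table the genes ATCC64974_68140, ATCC64974_72550 and ATCC64974_46290 had ratios of 2.39, 2.35 and 2.28 at the same q-value without the authors' call, with 9.26, 4.11 and 6.43 FPKM in MA234.1. ATCC64974_84720, at 35.2 FPKM in MA234.1, had a ratio of 1.78 at that q-value and no authors' call either. The authors' call thus asks for more than a q-value under 0.05, and its counts do not share the threshold of the edgeR calls.

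The 53 genes lay on 14 contigs of the deposited annotation, with 8 of them on contig 16, and none overlapped another annotated gene. Few were close to each other. ATCC64974_17940 and ATCC64974_17990, NACHT genes that both fell in ΔaslA, lay 9.44 kb apart on contig 3 with 4 genes between them. ATCC64974_102560 and ATCC64974_102580 lay 1.59 kb apart on contig 17 with 1 gene between them, and of these the HET gene ATCC64974_102580 fell and ATCC64974_102560 was not tested. Repeat-rich and related genes can share reads, and how reads that map to several places were counted is not given in the sources used here.

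Genes with related parts were followed by lists drawn from the annotation, in ΔaslA against MA234.1, beside the 23.6% of all genes that rose and the 25.0% that fell. Of 14 genes with N-terminal effector domains of NOD-like proteins (HeLo, HeLo-like, SesA, Goodbye or NACHT_N), 5 are among the 53; 13 passed the filter, 7 fell and 0 rose, with a median of -1.48. Of these 7, 2 are among the 53. With no ΔaslA library at its cutoff, 4 of the 7 passed the filter, ATCC64974_92660 among them. ATCC64974_92660, closest to het-S, whose HeLo domain forms the toxin of the Podospora anserina het-s prion system, averaged 0.0999 ± 0.113 CPM in ΔaslA and 2.65 ± 0.899 CPM in MA234.1 (SD, n = 3 each; log2 fold change -4.72, SE 1.12, edgeR adjusted p = 0.0109). Of 7 tested NB-ARC genes, which hold the plant-type relative of the NACHT ATPase, 2 fell, ATCC64974_68140 of the 53 among them, and 1 rose. The highest expressed, ATCC64974_49520, closest to nephrocystin-3, averaged 52.5 ± 2.22 CPM in ΔaslA and 256 ± 11.2 CPM in MA234.1 (log2 fold change -2.28, edgeR adjusted p = 0.00808). Of 17 tested nucleoside phosphorylase domain genes 6 fell and 3 rose. Here ATCC64974_68140 of the 53 is among the falls, and ATCC64974_42230 of the 53 among the rises. Among these 6 falls, 1 passed the filter with no ΔaslA library at its cutoff. Of 6 patatin-like phospholipases, a family that in Neurospora crassa takes part in allorecognition death, 1 fell and 2 rose.

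Further partners known from other fungi moved separately. The HET-C-like gene ATCC64974_28070, whose Neurospora crassa relative is an incompatibility protein, averaged 172 ± 2.44 CPM in ΔaslA and 105 ± 3.15 CPM in MA234.1 (SD, n = 3 each; log2 fold change 0.72, edgeR adjusted p = 0.0177). The glycolipid transfer protein gene ATCC64974_54830, of the family to which het-c of Podospora anserina belongs, averaged 428 ± 84.1 CPM in ΔaslA and 115 ± 10.4 CPM in MA234.1 (log2 fold change 1.89, edgeR adjusted p = 0.00813). Both rose, unlike most of the called HET and NACHT genes. Of 3 NDT80 family factors, a family that includes vib-1, which incompatibility in Neurospora crassa requires, 2 fell. The gene pacG (ATCC64974_66270) averaged 9.63 ± 2.51 CPM in ΔaslA and 123 ± 2.98 CPM in MA234.1 (log2 fold change -3.68, edgeR adjusted p = 0.00808), and ATCC64974_69020 averaged 1.88 ± 0.927 CPM in ΔaslA and 5.93 ± 1.12 CPM in MA234.1 (log2 fold change -1.66, edgeR adjusted p = 0.0190).

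Of 4 tested metacaspases and related peptidases, caspase-like enzymes of fungal cell death, the highest expressed was casB (ATCC64974_9470); it was not called and neither were the others, with a median of -0.62 over the list. It averaged 190 ± 25.1 CPM in ΔaslA and 312 ± 14.0 CPM in MA234.1 (SD, n = 3 each; log2 fold change -0.71, edgeR adjusted p = 0.170). Of 17 autophagy genes, a recycling pathway induced during incompatibility in Podospora anserina, 4 fell and 1 rose. Repeat genes outside the 53 were counted as well: of 84 tested WD40 genes 41 rose and 7 fell, with a median of 0.70. Their largest called changes included ytm1, rrb1 and erb1, closest to ribosome biogenesis or assembly proteins (log2 fold change 4.61, 3.94 and 3.87). This list thus holds genes of other functions and is no neutral background for the repeat. Of the 7 tested WD40 genes among the 53, 4 fell and 0 rose, with a median of -1.28. Of 54 tested ankyrin genes outside the 53, 8 rose and 14 fell, with a median of -0.27. Among these 14 falls, 2 passed the filter with no ΔaslA library at its cutoff. Of the 10 tested ankyrin genes among the 53, 3 fell and 1 rose, with a median of -1.10. Whether the repeat genes inside and outside the 53 differ was not tested.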

How the data were processed

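The authors deposited whole-number counts per gene for the 9 libraries, from stranded poly(A) libraries with paired reads of 50 bp, per the labels' protocols. HISAT2 2.2.1, Cuffdiff, Subread and featureCounts are named in the submitters' processing notes; their roles, the genome build, the strand mode and the handling of reads that map to several places are, in the sources used here, not given. To these the authors' deposited table adds 1 FPKM value per strain with replicates combined, a log2 ratio and a q-value per pair of strains, positions, protein families and the closest SwissProt protein.

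Counts were tested in edgeR 4.0.16 (R 4.3.3) by its quasi-likelihood test (TMM scaling, filter on low counts by group, strain as the only term in 1 fit of all 9 libraries). A gene was called at a Benjamini-Hochberg adjusted p under 0.05 over all 9568 genes that passed; 193 genes had no count. The filter asked for about 10 counts in a library of median size. CPM values use the TMM-scaled library totals. For edgeR, SE was worked back from the test, as the absolute log2 fold change over the square root of the F value. Beside DESeq2 results, SE is the value that DESeq2 gives. The fit was checked on simulated data with the same spread in all libraries, so the check does not cover uneven replicates such as those of ΔaslB. Values in every library were given for the 12 highest expressed of the 53 genes, for called genes and for the largest difference without a call. The genes and lists were chosen with earlier results of these data known. No replicate pair agreed within sampling noise by chi-square.

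As alternatives, the tests were run with DESeq2's size factors, with total counts alone, with DESeq2 1.42.0, with limma-voom of limma 3.58.1, with no filter, a stricter filter of at least 10 CPM in at least 3 libraries, the replicate number as a block, only the 6 libraries compared, and without each library in turn. No sequences of these genes were used here. Figures were drawn with matplotlib 3.10.9.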

Additional observations from a re-analysis of the deposited data

How the results depend on the processing

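For ΔaslA against MA234.1, 16 of the 20 called genes kept their call in every one of the 17 alternatives that gave them an adjusted p. ATCC64974_102580, ATCC64974_39700, ATCC64974_6410 and ATCC64974_75670 lost it in some, and the cause was not tested. DESeq2 gave no adjusted p for ATCC64974_5980, which counts as not called by DESeq2, so DESeq2 shared 19 of the 20 calls. The count of called genes was 29 with only the 6 libraries compared, 14 of 20 tested under the stricter filter, which leaves fewer genes, 19 to 22 under other scalings and tests, and 16 to 28 when a library was left out. The 27 gene results gave 448 pairs of a gene result and an alternative. Of these pairs, 402 kept direction and side, 27 lost the call, 14 gained it and 5 reversed. The reversals were those of ATCC64974_79160, which is near 0 at -0.01: 0.06 without a filter, 0.12, 0.01, 0.02 and 0.03 with a library left out; -0.10 was its lowest value.

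For ΔaslB against MA234.1 the count was 6 by DESeq2 and 0 to 18 when a library was left out, with 18 without ΔaslB replicate 2. For ΔaslA against ΔaslB it was 10 by DESeq2 and 0 to 14, with 14 without ΔaslB replicate 3. Scaling by total counts moved the median of all genes to 0.10 and -0.11 in these comparisons and called 0 of the 53 genes in each. Same-numbered replicates of different strains deviated together at r = -0.058 to 0.038 across genes, so the numbers were not taken as pairs. With the replicate number as a block, 20 genes were called in ΔaslA, of which 19 were shared with the fit without it, and 0 in the other comparisons.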
